A study of Mus musculus with 6 samples.

Results

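The long non-coding RNAs Neat1 and Malat1 were examined with 5 genes that encode proteins of paraspeckles, namely Nono, Sfpq, Pspc1, Rbm14 and Tardbp. The 7 genes were picked by symbol from the 39017 genes of the deposited count tables, and all 7 passed the filter on low counts in both comparisons. Their values were known when they were picked, so the counts and fold changes of these 7 genes are given as a description, without p-values.

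The RNA came from V6.5 mouse embryonic stem cells (mESCs). In the Pol II degron line, the endogenous RPB1 subunit of RNA polymerase II (gene Polr2a) carries an mAID-GFP tag, and the plant F-box protein OsTIR1 is induced with doxycycline. The untreated degron cells received 1 µg/ml doxycycline for 12 h and no auxin (2 libraries). The auxin-treated degron cells received the same doxycycline and then 500 µM auxin (indole-3-acetic acid), the ligand through which OsTIR1 marks the tagged protein for degradation, for 6 h (2 libraries). Wild-type cells without the tag gave 2 further libraries. The sources used here do not state whether the wild-type cells received doxycycline. The wild-type libraries were deposited in a table of their own, and the extract protocol in their labels mentions retinas. For these reasons the tag and any batch between the tables cannot be told apart. mESCs were grown on irradiated mouse embryonic fibroblasts, and how many tagged clones the degron libraries stand for is not given in the sources used here.

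Library totals lay between 14094022 and 15358714 counts, so no library was much deeper than another. The stem cell marker Pou5f1 had between 10625 and 13854 counts in every library. It does not stand for the other pluripotency genes. In the tests given below, 0 of 20 such genes were higher and 8 lower after auxin (4.2% of all genes called). In wild type 12 were higher and 4 lower (60.6% of all genes called). The summed level of 20 pluripotency genes was 5912 to 6778 counts per 1000000 counts (CPM) in untreated, 4870 to 5198 in auxin-treated and 9592 to 9707 in wild-type libraries. For 18 fibroblast genes the sums were 373 to 388, 433 to 484 and 276 to 277 CPM, in the same order. The sums for 18 differentiation genes, made up mostly of Krt8 and Krt18 in every library, were 1360 to 1938, 1925 to 1928 and 480 to 488 CPM. For 18 retina genes they were 18.0 to 19.2, 21.8 to 23.0 and 19.8 to 21.0 CPM, and the photoreceptor genes Crx and Rcvrn had no count in any library. The sums of 13 mitochondrial mRNAs were 3357 to 4028, 3842 to 4312 and 15586 to 15933 CPM. In bulk RNA, fewer cells of a type and less RNA per cell cannot be told apart.

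Paraspeckles are nuclear bodies that assemble on Neat1. The gene yields a short polyadenylated transcript and a long transcript from the same start, and the long transcript is the scaffold on which the bodies form. Malat1 is transcribed from the neighbouring gene and gathers in nuclear speckles, which are separate bodies rich in splicing factors. NONO, SFPQ and PSPC1 are the DBHS proteins (Drosophila behaviour/human splicing), which pair with each other and coat the long Neat1 transcript. RBM14 is needed for paraspeckles to form, and TARDBP (TDP-43) binds UG-rich RNA and is known to influence which Neat1 transcript is made. Human embryonic stem cells are known for having few paraspeckles.

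In the mm10 build and GENCODE vM21, Neat1 (ENSMUSG00000092274) lies on the minus strand of chromosome 19 from 5824708 to 5845478. Malat1 (ENSMUSG00000092341) lies on the same strand from 5795690 to 5802672, with 22035 bases between them. Both are annotated as lincRNA genes, and the annotated exons of each join into 1 block, of 20771 bases for Neat1 and 6983 bases for Malat1. Because the short Neat1 transcript of 3004 bases lies inside the long one and takes up 14.5% of its length, a count per gene does not separate them.

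The ends of the transcripts are shown because they differ in how the RNA is finished, and a library made from polyadenylated RNA depends on that end. The study calls the assay polyA RNA-Seq, while its methods and the sample labels name total RNA and no selection step. Sequences are those of the GENCODE vM21 transcripts, 5′ to 3′, searched on the transcribed strand only. In the first pair of sequences, capitals mark the poly(A) signal AATAAA in the last 60 bases of the short Neat1 transcript and of annotated Malat1.
Neat1-202, bases 2945 to 3004: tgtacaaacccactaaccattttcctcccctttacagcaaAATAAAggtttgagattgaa
Malat1-201, bases 6924 to 6983: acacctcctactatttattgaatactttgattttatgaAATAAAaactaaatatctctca
Both windows held AATAAA 1 time, and 31.1% of the last 60 bases of the longest transcripts of 55223 genes held it.

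The long Neat1 transcript ends in another way. Its mature 3′ end, and that of nuclear Malat1, are known to be made by RNase P, which cuts before a tRNA-like fold, and a U-rich stretch and the A-rich end then form a triple helix. Capitals mark GCTTTTC and GCAAAA in the last 120 bases of the long Neat1 transcript, and TTTTTCTTTT and GCAAAA in Malat1.
Neat1-201, bases 20652 to 20771: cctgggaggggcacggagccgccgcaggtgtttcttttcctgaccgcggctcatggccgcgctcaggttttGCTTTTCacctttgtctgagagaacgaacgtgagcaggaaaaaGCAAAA
Malat1-201, bases 6596 to 6759: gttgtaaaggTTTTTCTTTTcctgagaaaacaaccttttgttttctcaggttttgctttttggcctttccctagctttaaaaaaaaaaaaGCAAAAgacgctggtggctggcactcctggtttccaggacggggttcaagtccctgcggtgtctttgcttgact
The annotated long Neat1 transcript stops at GCAAAA, as did the longest transcripts of 36 of 55223 genes (0.0652%), and its last 120 bases held AATAAA 0 times. Among last windows of 120 bases in 51130 genes, 0.943% held GCTTTTC and 3.98% held GCAAAA. In Malat1 the run of A before GCAAAA was 12 bases long, and the annotated transcript went on for 292 bases after GCAAAA. Among 621311 fixed windows of 164 bases along transcripts, 0.0169% held both TTTTTCTTTT and GCAAAA. The Malat1 window was placed and sized around these motifs and so holds both by choice, which makes the shares not directly comparable.

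The longest TG repeat of the long Neat1 transcript, UG in the RNA, is shown because TARDBP binds such repeats. Capitals mark the repeat.
Neat1-201, bases 19409 to 19472: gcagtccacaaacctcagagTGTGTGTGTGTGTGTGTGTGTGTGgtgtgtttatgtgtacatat
The repeat was 24 bases long, and 2 shorter ones of 14 bases each began at bases 6833 and 19778. The short transcript ends before the first of them. TGTGTGTGTG occurred in 3 of 207 windows of 100 bases along Neat1 (1.45%), in 0 of 69 along Malat1, and in 0.419% of 1037569 such windows over all genes.

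Levels of different genes are compared per kilobase of annotated exon, as CPM per kb with TMM scaling over the 6 libraries. In untreated cells Malat1 stood highest of the 7, at 224.3 ± 27.9 (SD, n = 2). Nono followed at 122.8 ± 3.58, Tardbp at 57.6 ± 1.18, Sfpq at 36.4 ± 3.27 and Neat1 at 24.7 ± 1.57 CPM per kb. Rbm14 at 9.08 ± 0.634 and Pspc1 at 3.17 ± 0.540 CPM per kb were the lowest, and no neighbours in this order overlapped between the untreated libraries. Malat1 lay above 99.2% of the genes with a count in untreated cells, Neat1 above 90.0% and Pspc1 above 57.4%.

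The order in auxin-treated cells was the same, from Malat1 at 257.3 ± 21.0 CPM per kb to Pspc1 at 3.64 ± 0.121. Wild-type cells had another order. Sfpq at 128.9 ± 1.02, Nono at 122.3 ± 0.456 and Malat1 at 121.4 ± 11.3 CPM per kb stood together at the top, and the Malat1 libraries spread across the other two. Tardbp at 53.7 ± 0.0856, Pspc1 at 28.1 ± 0.239 and Rbm14 at 18.7 ± 0.0802 CPM per kb came next. Neat1 was last at 2.30 ± 0.0828 CPM per kb, above 52.7% of genes with a count. These levels depend on the length used. With the short transcript's 3.004 kb, chosen after seeing the data, Neat1 came to 170.6, 159.0 and 15.9 CPM per kb in untreated, auxin-treated and wild-type cells. With the longest transcript as the length, Nono came to 209.6, 209.9 and 208.8 CPM per kb, and in wild-type cells it then stood above Sfpq at 176.4.

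**Figure D1:**
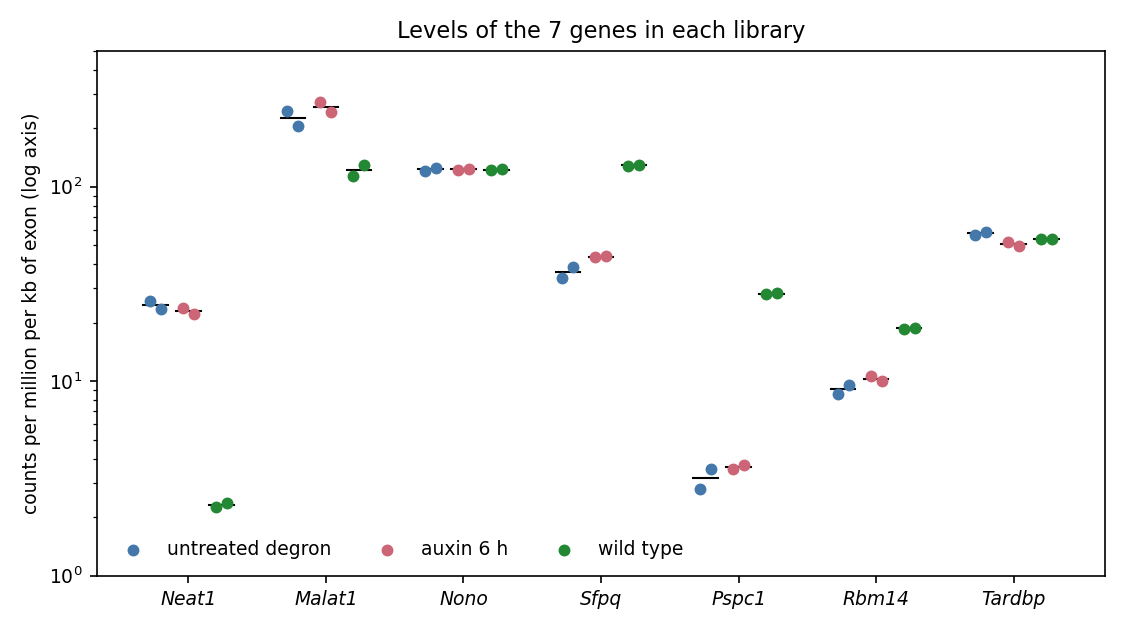
Levels of the 7 genes in each of the 6 libraries, in CPM per kb of annotated exon on a log axis. Points are libraries and short lines are group means. Neat1 is the lowest of the 7 in wild type, at 2.30. Pspc1 is higher in wild type (28.1) than in untreated (3.17) or auxin-treated cells (3.64), while the 3 groups of Nono sit at 122.8, 122.9 and 122.3.

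The first comparison asked what the 7 RNAs looked like after 6 h of auxin. None of the 7 passed an adjusted p (Benjamini-Hochberg) under 0.05 in edgeR's quasi-likelihood test over 16128 genes, which called 4.2% of all genes (2.56% higher and 1.64% lower). DESeq2 called 0 of the 7 as well, where it called 1.27% of all genes with an adjusted p. In edgeR 4 of the 7 were at an unadjusted p under 0.05, as were 20.1% of all genes. The 7 log2 fold changes lay between −0.17 and 0.28 with a median of 0.20, and the median of all genes tested was −0.00. Scaling to mitochondrial mRNAs moved the median of all genes to −0.17. On that scale Malat1 was at 0.04, Sfpq at 0.12, Pspc1 at 0.06 and Rbm14 at 0.04. Neat1 was then at −0.25, Nono at −0.15 and Tardbp at −0.33. Relative to the moved median, the 7 lay between −0.16 (Tardbp) and 0.29 (Sfpq). Polr2a, the gene of the tagged subunit, rose at the RNA level by a log2 fold change of 0.57 (SE 0.07, edgeR adjusted p = 0.00117), which says nothing of the RPB1 protein.

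Neat1 had 7676 and 7114 counts in untreated and 7896 and 7127 in auxin-treated libraries. The groups overlapped in CPM, and the log2 fold change was −0.08 (SE 0.08). Malat1 had 24424 and 20772 counts in untreated and 30307 and 26233 in auxin-treated libraries. Its log2 fold change was 0.22 (SE 0.10). Its groups did not overlap, but its untreated libraries differed from each other by 0.25 on the log2 scale, more than that fold change. The lowest of the 4 pairings of an auxin-treated with an untreated library gave 0.01 and the highest 0.44.

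Among the DBHS genes, Nono had 7540 and 7971 counts in untreated and 8549 and 8360 in auxin-treated libraries, with overlapping CPM and a log2 fold change of 0.02 (SE 0.07). Sfpq had 2320 and 2672 against 3276 and 3247 counts, a log2 fold change of 0.28 (SE 0.07). Both auxin-treated libraries were above both untreated ones, and Sfpq lay just short of the threshold. Pspc1 had 229 and 296 against 325 and 331 counts, a log2 fold change of 0.22 (SE 0.12). Here the untreated libraries were 0.35 apart on the log2 scale, which again is more than the fold change.

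Rbm14 had 484 and 542 counts in untreated and 659 and 605 in auxin-treated libraries. Its log2 fold change was 0.20 (SE 0.09). Tardbp had 6344 and 6624 against 6430 and 5979 counts, and with the larger auxin-treated libraries this was a log2 fold change of −0.17 (SE 0.07). CPM of the groups did not overlap for 5 of the 7 genes, all except Neat1 and Nono, and 49.9% of all genes tested had groups that did not overlap. Which of the 7 passed the threshold depended on the untreated libraries kept. Without untreated replicate 1, Malat1, Sfpq and Tardbp passed the threshold at log2 fold changes of 0.35, 0.19 and −0.19, and without untreated replicate 2, Sfpq and Pspc1 passed it at 0.37 and 0.40. The summed differentiation markers also stood apart between the untreated libraries, at 1360 CPM in the lower and 1938 CPM in the higher. Most of that sum came from 2 keratin genes, Krt8 (15710 and 10925 counts in untreated replicates 1 and 2) and Krt18 (10139 and 6977). The sum therefore says little about the other differentiation genes, and the part of these markers in the values of the 7 genes was not tested.

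The second comparison set wild-type cells beside untreated degron cells, and so asked whether these RNAs differ between untagged and tagged mESCs in the absence of auxin. It uses the same 2 untreated libraries as the first. The differences were larger: Neat1 and Malat1 were lower in wild type, Sfpq, Pspc1 and Rbm14 were higher, and Nono and Tardbp lay near 0. In edgeR's test 5 of the 7 passed the threshold, 3 higher and 2 lower, in a comparison in which 60.6% of all 15778 genes tested did (29.9% higher and 30.7% lower). The share among the 7 is read with that background and with the choice of the genes in view. The median log2 fold change of the 7 was −0.01 and that of all genes −0.01.

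Neat1 had 662 and 703 counts in wild-type libraries beside the 7676 and 7114 of the untreated ones. Both wild-type libraries were far below both untreated libraries. The log2 fold change was −3.43 (SE 0.07), or 10.8-fold lower, and the 4 pairings of libraries ran from −3.53 to −3.32. Of the genes tested, 133 had a lower log2 fold change.

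Malat1 had 11232 and 12939 counts in wild type beside 24424 and 20772. The groups did not overlap, and the log2 fold change was −0.89 (SE 0.09), or 1.86-fold lower, with pairings from −1.11 to −0.67. Malat1 took 0.173% and 0.142% of all counts in the untreated libraries and 0.0760% and 0.0870% in the wild-type libraries.

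The DBHS genes did not move alike. Nono had 7571 and 7682 counts in wild type beside 7540 and 7971, with groups that overlapped and a log2 fold change of −0.01 (SE 0.06). Sfpq had 8625 and 8803 counts beside 2320 and 2672, a log2 fold change of 1.81 (SE 0.07), or 3.52-fold higher. Pspc1 had 2274 and 2323 counts beside 229 and 296, a log2 fold change of 3.14 (SE 0.10), or 8.82-fold higher. Every wild-type library was above every untreated library for Sfpq and Pspc1, and 283 and 54 of the genes tested had a higher log2 fold change than these.

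Rbm14 had 1034 and 1050 counts in wild type beside 484 and 542, a log2 fold change of 1.03 (SE 0.07), or 2.05-fold higher. Tardbp had 5952 and 5994 counts beside 6344 and 6624, a log2 fold change of −0.11 (SE 0.06). Groups did not overlap for 6 of the 7 genes, all except Nono, where 81.0% of all genes tested had groups that did not overlap.

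**Figure D2:**
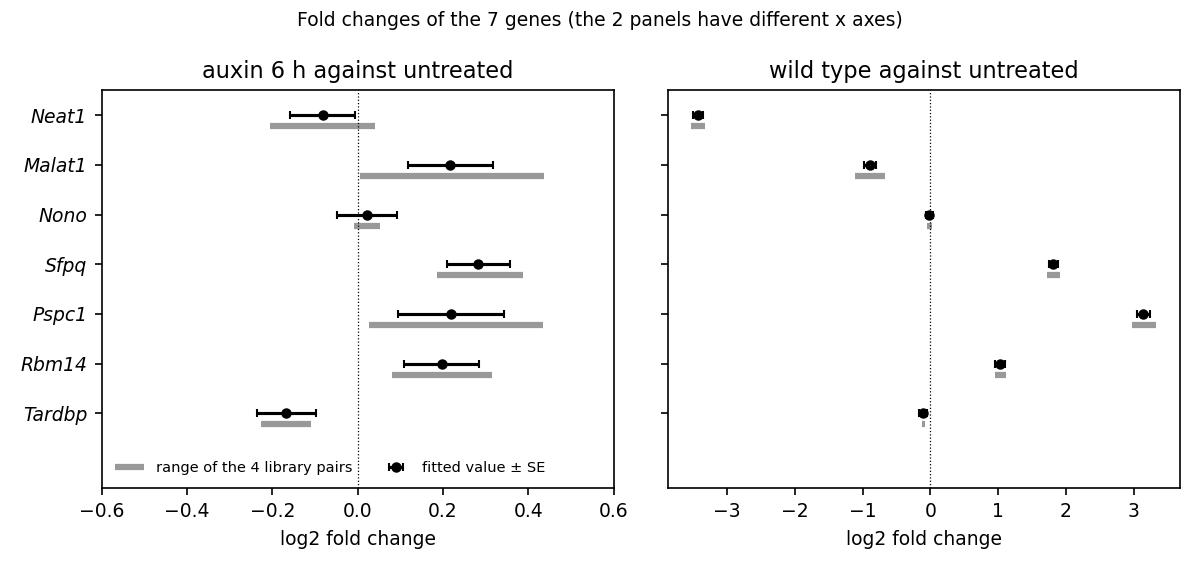
Log2 fold changes of the 7 genes, auxin 6 h against untreated on the left and wild type against untreated on the right, on different x axes. Points with bars are the fitted values with SE and grey lines span the 4 pairings of libraries. On the left all values lie between −0.17 and 0.28, and on the right they reach from −3.43 for Neat1 to 3.14 for Pspc1.

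These fold changes are relative to the scaling of the libraries. Mitochondrial mRNAs were higher in wild type for all 13 genes, with a median log2 fold change of 2.24. Scaling to those mRNAs moved the median of all genes to −2.10, and on that scale the log2 fold changes of Sfpq (−0.27) and Rbm14 (−1.06) changed sign while that of Pspc1 stayed at 1.06. Relative to the moved median, Neat1 was at −3.43, Malat1 at −0.90, Nono at −0.00, Sfpq at 1.83, Pspc1 at 3.16, Rbm14 at 1.05 and Tardbp at −0.10. On that scale 73 of 15308 called genes were higher, so directions given for other genes and lists in wild type hold on the reported scale. No spike-in was given in the sources, so the amount of RNA per cell cannot be read from these libraries.

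Ratios of counts within a library need no scaling between libraries. Neat1 made up 23.9% (95% Wilson interval 23.4 to 24.4) and 25.5% (25.0 to 26.0) of the counts of Neat1 and Malat1 together in the untreated libraries. In the auxin-treated libraries the share was 20.7% (20.3 to 21.1) and 21.4% (20.9 to 21.8). In wild type it was 5.57% (5.17 to 5.99) and 5.15% (4.79 to 5.54). Intervals cover counting error only. The 3 groups did not overlap. Separation of this kind was common, since CPM did not overlap for 49.9% of all genes after auxin and 81.0% in wild type. The ratio of Neat1 to Malat1 counts was 0.328 ± 0.0199 (SD, n = 2) in untreated, 0.266 ± 0.00788 in auxin-treated and 0.0566 ± 0.00326 in wild-type cells. An exact two-sided permutation test of 2 libraries against 2 cannot give a p below 0.333, so no test of these ratios was made.

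The makeup of the DBHS transcripts was read within each library as well. Per kilobase, Nono made up 76.5% and 74.8% of the 3 transcripts in untreated libraries, 72.3% and 72.0% in auxin-treated libraries, and 43.9% and 43.7% in wild type. The share of Sfpq was 21.7% and 23.1%, then 25.6% and 25.8%, then 46.1% and 46.2%. Pspc1 made up 1.77% and 2.12%, then 2.10% and 2.18%, then 10.1% and 10.1%. The wild-type libraries stood apart for each of the 3 genes, and only for Pspc1 did the untreated and auxin-treated shares overlap. The shares of a library make up a whole, so the 3 genes are not separate observations. For CPM of single genes, groups did not overlap for 49.9% of all genes after auxin and 81.0% in wild type. The shares also depend on the length used. With the longest transcript, Nono in wild type was at 208.8 CPM per kb, above Sfpq at 176.4 and Pspc1 at 39.2. Counted by reads, there were 32.9 and 26.9 Nono counts for each Pspc1 count in untreated, 26.3 and 25.3 in auxin-treated, and 3.33 and 3.31 in wild-type libraries. The summed level of the 3 genes was 162.4 ± 7.39 (SD, n = 2) CPM per kb in untreated, 170.3 ± 1.28 in auxin-treated and 279.3 ± 1.71 in wild-type cells. For each 1000 DBHS counts there were 761 and 650 Neat1 counts in untreated, 650 and 597 in auxin-treated, and 35.8 and 37.4 in wild-type libraries.

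**Figure D3:**
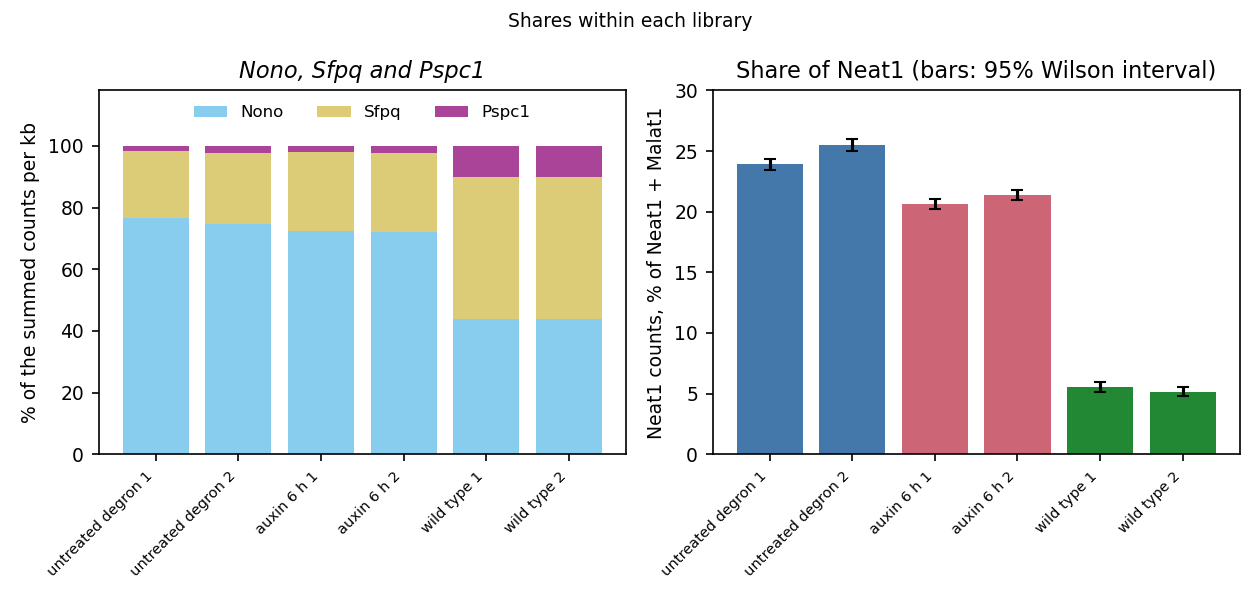
Shares within each library. On the left, the percent of the summed counts per kb that Nono, Sfpq and Pspc1 make up, and on the right Neat1 as a percent of Neat1 and Malat1 counts with 95% Wilson intervals. In wild type Nono falls below 44% of the DBHS sum per kb of annotated exon, a share that depends on the length used. Neat1 is at 5.57% and 5.15% of the pair in wild type.

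Reads of other genes could enter some of these counts. Of 100-base stretches of the transcript used for each gene, 8.65% of those of Nono also occur in Gm5171 or Gm8806 and 14.0% of those of Rbm14 in Gm21992. The shares were 0.421% for Neat1 and 0.0436% for Malat1, and 0 for Sfpq, Pspc1 and Tardbp. Gm21992 is a readthrough gene on the strand of Rbm14 that shares 727 of its exon bases (18.6%), and it had 25 to 46 counts in a library. On the strand of Sfpq, Gm12940 shares 216 exon bases (4.55%). It had 148 and 160 counts in untreated, 242 and 261 in auxin-treated and 658 and 733 in wild-type libraries, and it rose in both comparisons with log2 fold changes of 0.60 (SE 0.13, edgeR adjusted p = 0.0224) and 2.18 (SE 0.10, edgeR adjusted p = 1.41e-08). How reads of the shared bases were assigned was not tested. Small genes annotated inside Neat1 (Gm27533, Gm27505 and Gm28006) and Malat1 (Gm27694) had 0 counts in all libraries. Masp2, on the strand opposite Tardbp over 1817 exon bases, had 55 to 81 counts, and Gm21844, opposite Rbm14, had 4 to 11. Whether counting used strand is not given in the sources used here, so opposite genes may share reads.

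A list of 34 other genes of paraspeckle proteins was set beside the 7, and all 34 were tested. After auxin, 1 was higher and 2 lower (8.82% of the list, with 4.2% of all genes called), at a median log2 fold change of −0.03 (−0.00 for all genes). Hnrnph1, which encodes an RNA-binding splicing regulator, rose from 6507 and 5994 counts to 9162 and 8394 (log2 fold change 0.39, SE 0.08, edgeR adjusted p = 0.0148). Rbm12 fell from 264 and 298 counts to 182 and 190 (log2 fold change −0.70, SE 0.12, edgeR adjusted p = 0.00811). The other was Rbm4b at −0.39, named after its value was seen. Leaving out 1 library moved the count of 3 to between 0 and 7: 7 without untreated replicate 1, 6 without untreated replicate 2, 0 without auxin-treated replicate 1 and 1 without auxin-treated replicate 2.

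In wild type, 15 of the 34 were higher and 2 lower (50.0%, with 60.6% of all genes called), at a median log2 fold change of 0.15 (−0.01 for all genes). Hnrnpa1, an abundant splicing regulator, rose from 11022 and 12024 counts to 29086 and 29528 (log2 fold change 1.36, SE 0.07, edgeR adjusted p = 2.79e-08). Akap8l fell from 1115 and 1200 counts to 860 and 840 (log2 fold change −0.43, SE 0.07, edgeR adjusted p = 0.000241). The other that fell was Cirbp at −0.33, named after its value was seen. On the mitochondrial scale all 34 were called, in a comparison where the median of all genes was −2.10.

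Several genes of the list were looked at for their known roles, after their values were seen. Like Nono, Sfpq and Rbm14, the genes Hnrnpk, Dazap1, Hnrnph3 and Smarca4 encode proteins known to be needed for paraspeckles to form. In wild type, Hnrnpk had 11956 and 12052 counts beside 12133 and 12753 in untreated (log2 fold change −0.04, SE 0.06), and it did not pass the test. Smarca4 rose by a log2 fold change of 0.60 (SE 0.06), Dazap1 by 0.67 (SE 0.06) and Hnrnph3 by 0.75 (SE 0.07). After auxin all 4 lay between −0.03 and 0.07, and none passed the test.

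The cleavage factor proteins NUDT21 and CPSF6 are known to promote the short Neat1 end, and HNRNPK to oppose them. Nudt21 had 2847 and 3095 counts in untreated and 3204 and 3211 in wild-type libraries (log2 fold change 0.12, SE 0.06) and did not pass the test. Cpsf6 rose from 3024 and 2867 to 3690 and 4030 counts (log2 fold change 0.40, SE 0.06).

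**Figure D4:**
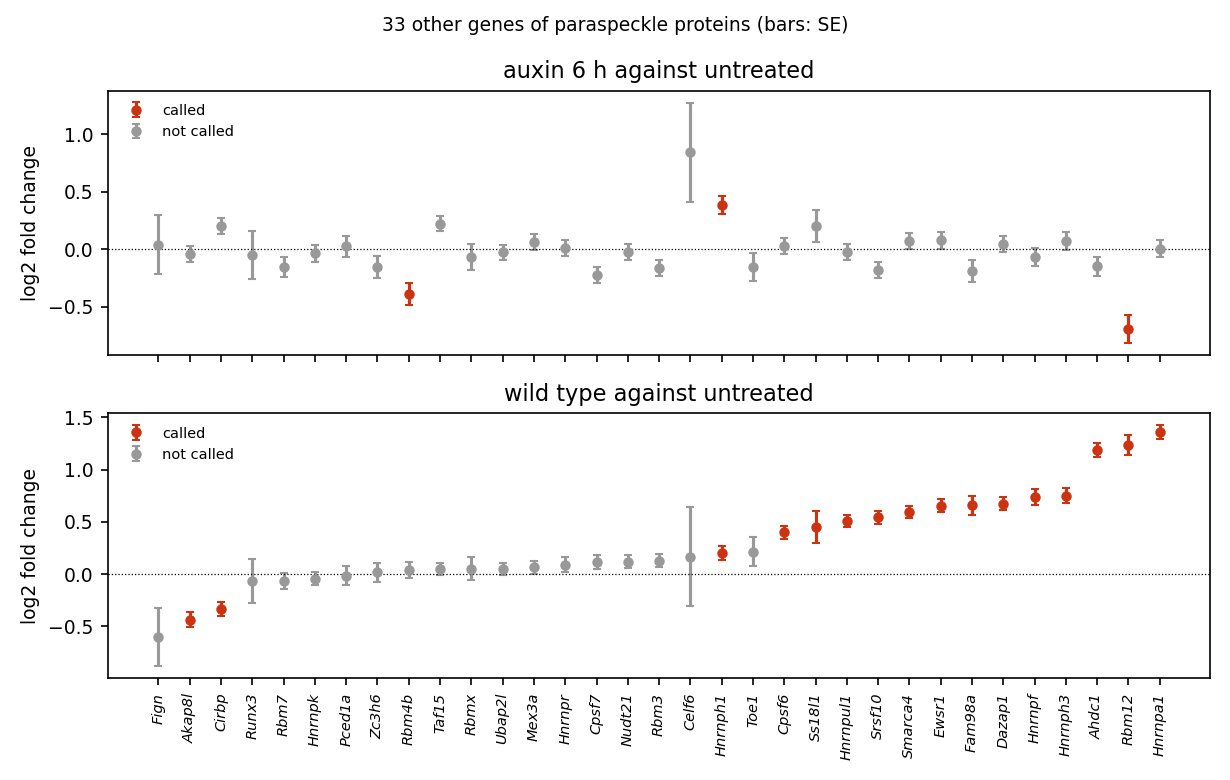
Log2 fold changes with SE of 33 of the 34 other genes of paraspeckle proteins, auxin 6 h against untreated above and wild type against untreated below, in the order of the lower panel. Red points passed an adjusted p under 0.05 in edgeR (3 above, 16 below), and grey points did not.

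Genes of 3 related groups were counted next. Of 22 genes of nuclear speckle proteins, the compartment that Malat1 occupies, 0 were higher and 1 lower after auxin (4.55%, with 4.2% of all genes called). It was Clk4, which encodes a kinase of splicing factors, at a log2 fold change of −0.31 (SE 0.07, edgeR adjusted p = 0.0284). In wild type 16 were higher and 3 lower (86.4%, with 60.6% of all genes called, 29.9% higher and 30.7% lower) at a median log2 fold change of 0.42. Snrnp70, of the U1 snRNP, rose by 0.81 (SE 0.06, edgeR adjusted p = 4.32e-07) and Clk4 fell by 1.22 on the log2 scale (SE 0.08, edgeR adjusted p = 1.59e-07).

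Of 24 genes for RNA 3′ end processing, 0 were higher and 1 lower after auxin (4.17%, near the 4.2% of all genes), namely Cstf1 at −0.39 (SE 0.07, edgeR adjusted p = 0.0133). In wild type 11 were higher and 5 lower (66.7%, near the 60.6% of all genes), at a median of 0.09. Cpsf3, the endonuclease that cuts pre-mRNA, rose by 0.45 (SE 0.06, edgeR adjusted p = 8.64e-05). Cstf3 fell by 0.59 on the log2 scale (SE 0.07, edgeR adjusted p = 1.61e-05).

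Of 42 other long non-coding RNAs listed, 28 were in the tables. After auxin 2 of the 24 tested were higher and 2 lower (16.7%, with 4.2% of all genes called), at a median log2 fold change of 0.02. Terc, the telomerase RNA, rose from 19 and 13 to 59 and 55 counts (log2 fold change 1.72, SE 0.30, edgeR adjusted p = 0.00776). Gas5, a snoRNA host gene, fell from 2965 and 3020 to 2627 and 2400 counts (log2 fold change −0.36, SE 0.07, edgeR adjusted p = 0.0124). The other 2, Jpx at 1.81 and Snhg5 at −0.37, are named after their values were seen. In wild type 6 of 23 were higher and 11 lower (73.9%, with 60.6% of all genes called, 29.9% higher and 30.7% lower), at a median of −0.30. Miat fell from 180 and 209 to 17 and 14 counts, a log2 fold change of −3.63 (SE 0.23, edgeR adjusted p = 1.72e-07). The gene 2900097C17Rik rose by 1.01 (SE 0.11, edgeR adjusted p = 8.86e-06). Leaving out 1 library moved the calls after auxin to 0 to 7 for speckle genes, 0 to 3 for 3′ end genes and 1 to 11 for long non-coding RNAs. Each was highest without untreated replicate 1 and lowest without either auxin-treated replicate.

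The other lists describe the samples, and the genes given for each are the called genes of smallest p in each direction, whatever the size of the change. After auxin, with 4.2% of all genes called, 3 of 12 mitochondrial mRNAs were higher and 0 lower, with the smallest p for mt-Co2 at 1.04 (edgeR adjusted p = 0.00282). Pluripotency genes were 0 higher and 8 lower of 20, with the smallest p for Fgf4 at −0.90 (edgeR adjusted p = 5.63e-05). Feeder fibroblast genes were 2 higher and 0 lower of 15, with the smallest p for Col5a1 at 0.40 (edgeR adjusted p = 0.02). No retina gene (of 8) and no differentiation gene (of 14) was called by edgeR, with 3 and 2 at an unadjusted p under 0.05 (20.1% of all genes). In wild type, with 60.6% of all genes called, 13 of 13 mitochondrial mRNAs were higher, with the smallest p for mt-Nd6 at 2.25 (edgeR adjusted p = 2.97e-09). Pluripotency genes were 12 higher and 4 lower of 20, with the smallest p for L1td1 at 1.98 and Klf2 at −1.16. Feeder genes were 4 higher and 7 lower of 14, with the smallest p for Pdgfra at 1.76 and Col5a1 at −1.18. Retina genes were 3 higher and 2 lower of 7, with the smallest p for Aipl1 at 1.05 and Pde6a at −2.07. Differentiation genes were 8 higher and 5 lower of 14, with the smallest p for Sox1 at 2.19 and Krt8 at −2.32. The part of these cell-state differences in the values of the 7 genes was not tested.

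Because Neat1 and Malat1 are neighbours, the genes around them were read as well. Within 100 kb of either gene the tables hold 20 other genes. After auxin 10 were tested and 0 were called (4.2% of all genes called), with log2 fold changes between −0.29 and 0.27. In wild type 11 were tested, and 4 rose and 4 fell (60.6% of all genes called, 29.9% higher and 30.7% lower). Frmd8, upstream of Neat1, was at 0.13 (SE 0.07) and was not called. Downstream, Ltbp3 fell by 1.15 on the log2 scale (SE 0.10, edgeR adjusted p = 1.83e-06) and Ehbp1l1 by 0.73 (SE 0.11, edgeR adjusted p = 0.000205), while Sssca1 rose by 0.70 (SE 0.12, edgeR adjusted p = 0.000319). Upstream, Dpf2 fell by 0.34 on the log2 scale (SE 0.06, edgeR adjusted p = 0.000567). Cdc42ep2 rose by 2.21 (SE 0.47, edgeR adjusted p = 0.00157), Tigd3 by 0.77 (SE 0.26, edgeR adjusted p = 0.0244) and Pola2 by 0.53 (SE 0.08, edgeR adjusted p = 0.000141). Neighbours on either side moved both ways, as genes did over the whole comparison. None that was tested had a log2 fold change as low as the −3.43 of Neat1. Only 133 of all 15778 genes tested did, and Neat1 was picked with its value known, so this says little about the locus. Map3k11 and Slc25a45 were not called, at −0.05 and −0.59.

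**Figure D5:**
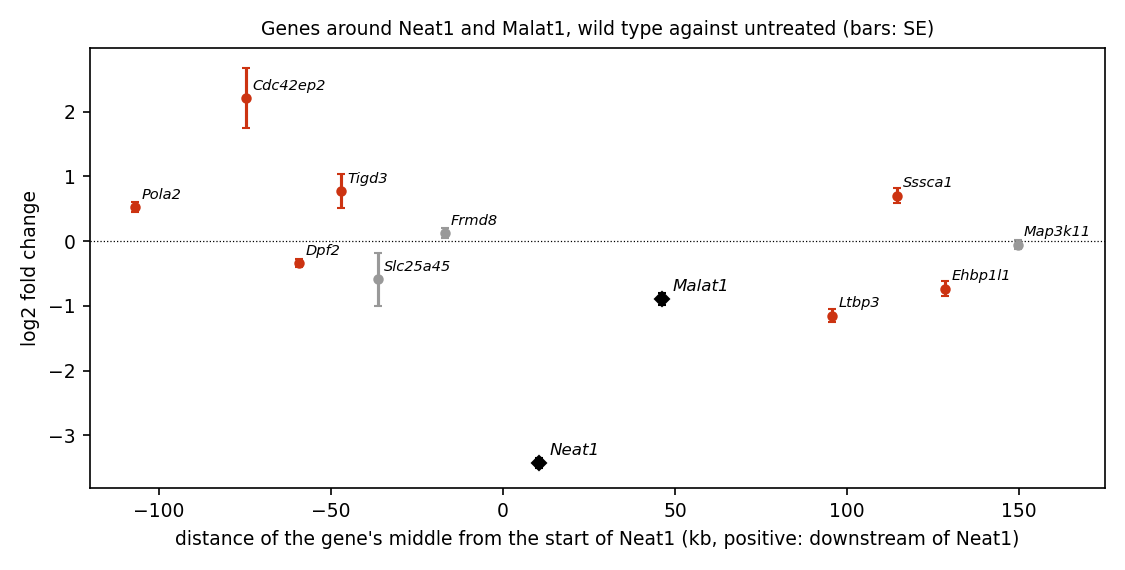
Log2 fold change with SE, wild type against untreated, of 10 of the 11 tested genes within 100 kb of Neat1 or Malat1, by the distance of each gene's middle from the start of Neat1 in kb. Red points passed an adjusted p under 0.05 in edgeR, grey points did not, and black diamonds are Neat1 (−3.43) and Malat1 (−0.89).

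The genes whose pattern over the 6 libraries was nearest to that of Neat1 and of Malat1 were found by the root mean square difference of centred log2 CPM, among the 10968 genes that averaged 100 counts or more. Nearest to Neat1 was Ddit3, a transcription factor gene of the stress response, at 0.0981. Ddit3 had 2834 and 2808 counts in untreated, 2681 and 2744 in auxin-treated and 240 and 296 in wild-type libraries. Usp17lc (0.145), Gm8994 (0.157), Gap43 (0.164) and Miat (0.172) followed, and the median over all genes was 1.61. All 5 were far lower in wild type, with log2 fold changes from −3.63 to −3.08, which follows from picking them for likeness to Neat1.

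Nearest to Malat1 were Sema3b (0.0342), Gprc5c (0.0380), Ptplad2 (0.0447), Crtc3 (0.0520) and Hspb2 (0.0521), beside a median over all genes of 0.526. Sema3b had 282 and 238 counts in untreated, 332 and 290 in auxin-treated and 129 and 151 in wild-type libraries. The points share library, table and scaling, and 6 libraries in 3 groups leave few degrees of freedom, so likeness is a description only. Neat1 was not among the 5 genes nearest to Malat1, and Malat1 stood at place 720 for Neat1. Of the other members, the nearest to Pspc1 was Sfpq, at place 106.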

How the data were processed

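RNA-Seq counts of 6 libraries (2 untreated, 2 auxin 6 h, 2 wild type) were read from 2 tables. Per the labels and the study's methods, the authors aligned reads to mm10 with HISAT2 2.1.0 and GENCODE splice sites, named Salmon and HTSeq for counting per gene, and tested with DESeq2. The GENCODE release and the strand setting are not given in the sources used here. The deposited counts are whole reads per gene, not normalized. The authors also deposited DESeq2 mean normalized signal, fold change ratios, log2 fold changes and p-values, which were not used. Another 2 columns of per-sample values match no sample and were not used, and 27 symbols turned into dates were restored by gene ID. Of 39017 gene IDs, 37607 are in GENCODE vM21.

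Library totals were 14094022 to 15358714 counts. Each comparison was fitted on its own 4 libraries with edgeR 4.0.16 (R 4.3.3): filterByExpr with minimum count 10, TMM, glmQLFit, glmQLFTest, Benjamini-Hochberg over all genes tested, calls at adjusted p under 0.05, prior count 0.125. SE is the unshrunk log2 fold change divided by the square root of F. The study's methods state that high-throughput experiments had biological replicates. The labels do not say that these libraries came from separate cultures, so p-values measure only the spread between them. The scripts were tested on simulated counts.

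The 7 genes and all lists were chosen with earlier results of these data known. Besides the 7, genes named were the called gene of smallest p per list, direction and comparison, genes overlapping a member or within 100 kb of Neat1 or Malat1, the 5 nearest to each in pattern, and Polr2a. Some genes that this rule names, or that a list holds, are not reported here. Alternatives were DESeq2 1.42.0, other scalings and filters, all 3 groups in 1 fit, a replicate block, robust dispersion, a prior count of 5, other lengths and leaving out each library.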

Additional observations from a re-analysis of the deposited data

How the results depend on the processing

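Of 196 alternative values of the 7 genes' fold changes, 180 kept their side of the threshold and, where they passed it, their direction. A change of sign was not counted where neither fit passed the threshold. Nono after auxin, for example, was at 0.02 in the reported fit and −0.15 with mitochondrial scaling. After auxin, Sfpq passed the threshold with library totals (0.30), all 3 groups in 1 fit (0.26), the replicate block (0.29) and robust dispersion (0.28), so that 1 of the 7 was called under each of these 4. In the reported fit Sfpq was at 0.28 and just short of the threshold. What moved it across was not tested. Leaving out each library in turn gave 0.0921 to 0.35 for Malat1, 0.19 to 0.37 for Sfpq, 0.050 to 0.40 for Pspc1 and −0.20 to −0.13 for Tardbp, with 0 to 3 of the 7 called. In wild type, Tardbp changed its side of the threshold in 4 of 14 alternatives, among them library totals (−0.17). Leaving out libraries gave −0.13 to −0.0890 for Tardbp. Scaling to mitochondrial mRNAs gave Nono −2.11, Sfpq −0.27, Rbm14 −1.06 and Tardbp −2.20, and 15308 called genes (73 higher, 15235 lower, or 0.477% higher where the reported fit had 49.3%). Library totals moved that share to 43.7%.

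The count of 677 genes called after auxin was 236 with DESeq2, 219 with mitochondrial scaling, 55 with no filter, 432 with at least 10 counts in every library, 1235 with all 3 groups in 1 fit, 1930 with the replicate block, and 179 to 2724 leaving out libraries, with 2724 and 1114 without untreated replicates 1 and 2. The share of higher calls moved from 61.0% to 76.3% with mitochondrial scaling, 78.2% with no filter and 45.9% with all 3 groups.

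List counts after auxin are given in the order other paraspeckle, nuclear speckle, 3′ end, other long non-coding, mitochondrial, pluripotency, feeder and differentiation genes. With no filter they were 0, 0, 0, 0, 0, 4, 0 and 0. With all 3 groups in 1 fit, in the same order up to pluripotency, they were 6, 4, 2, 8, 1 and 13. With the replicate block they were 6, 5, 2, 10, 6, 13, 5 and 3. Mitochondrial scaling gave 1, 0, 0 and 1 for the first 4 and 0 for feeder genes. DESeq2 gave 0 nuclear speckle, 2 long non-coding and 1 feeder gene. Leaving out libraries gave 0 to 7, 0 to 7, 0 to 3, 1 to 11, 2 to 9, 5 to 15, 0 to 4 and 0 to 3, highest without untreated replicate 1 except for mitochondrial mRNAs, which were highest without untreated replicate 2. In wild type, mitochondrial scaling called 34 other paraspeckle genes and 8 mitochondrial mRNAs. Retina genes went from 5 to 1 (DESeq2), 2 (no filter), 2 (10 counts in every library) and 2 to 4 (leaving out libraries).

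Levels with the longest transcript, in CPM per kb for untreated, auxin-treated and wild-type cells, were 209.6, 209.9 and 208.8 for Nono, 49.9, 59.9 and 176.4 for Sfpq, 4.42, 5.07 and 39.2 for Pspc1, 10.1, 11.5 and 20.8 for Rbm14, and 60.1, 52.8 and 56.0 for Tardbp. With the short transcript Neat1 gave 170.6, 159.0 and 15.9, an alternative chosen after seeing the data. On library totals, 2 of the 5 genes nearest Neat1 and 3 of the 5 nearest Malat1 were shared.

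The labels do not say whether the same replicate number marks a shared culture or day. Over 10969 genes, deviations of same-numbered libraries correlated at 0.107 (untreated and auxin) and −0.06 (untreated and wild type). With 2 libraries per group these values can neither show nor exclude a shared culture or day. The reported fits used no block, and the block raised the calls after auxin from 677 to 1930. Depth limits the low counts of Pspc1 in degron cells most, at 229 to 331.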
